A study of Drosophila melanogaster with 28 samples.

Results

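Tomosyn is an X-linked Drosophila gene of 21.8 kb (X 12631605 to 12653442 on dm6) whose body held peaks of every deposited list. Every peak of the 9 lists that overlaps the gene body by at least 1 bp was taken, and peaks that overlap each other by at least 1 bp were merged. This gave 25 peaks in 9 merged regions, out of 2013 peaks in 1098 merged regions in all and 502 regions on X. The gene was chosen by its number of peaks in these same lists, so the counts below describe it and carry no test.

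DNA purified from BG-3 cells, a line of larval nervous system origin, was packed into chromatin in vitro over 5 h, and added protein was left to bind for 30 min before crosslinking and a partial MNase digest. Precipitation with the MSL2 antibody followed addition of MSL2, MSL2 + CLAMP or MSL2 + CLAMP mutant. Precipitation with the CLAMP antibody followed addition of CLAMP, MSL2 + CLAMP, CLAMP mutant or MSL2 + CLAMP mutant. The FLAG antibody was applied after CLAMP or CLAMP mutant. The labels do not say what the mutation is, and each antibody has its own negative control, which its lists share. Each list came from the merged tags of 2 libraries, or 3 for the MSL2 antibody. There is therefore 1 list per condition and no replicate error for any value. Intervals are exact (Clopper-Pearson) 95% intervals that cover at most counting error. They treat the regions or peaks of the gene as independent draws, which neighbouring ones may not be, so they are only a rough guide. Tag totals ran from 3875205 (CLAMP antibody, MSL2 + CLAMP) to 26822838 (MSL2 antibody, MSL2). The CLAMP antibody lists of the mutant had the smallest shares of tags in peaks, 0.0328% alone and 0.0377% with MSL2, against up to 2.50% for FLAG CLAMP.

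The Tomosyn protein binds the SNARE proteins that fuse synaptic vesicles with the plasma membrane. It carries a SNARE motif like that of synaptobrevin and is known as an inhibitor of transmitter release. MSL2 is the subunit of the male-specific dosage compensation complex that recognises GA-rich entry sites on the X chromosome, and CLAMP, a GA-repeat binding factor with zinc fingers, is known to help the complex reach such sites. In males the complex spreads from these sites to active genes along X and raises their transcription. On chromatin rebuilt from naked DNA only the binding itself is read, and no transcription is measured.

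The 9 regions are numbered here by coordinate, since the gene table gives no strand. They lay in 3 places. Region 1 stood alone, 2699 bp from the low-coordinate end of the gene. Regions 2 to 4 lay within 1617 bp near the middle, with centres at 42.4% to 48.8% of the gene length. Regions 5 to 9 lay within 2682 bp, with centres at 76.6% to 87.9%, and held 17 of the 25 peaks. From region 9 to the high-coordinate end there were 2540 bp without a peak. Together the regions covered 1750 bp, or 8.01% of the gene body.

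**Figure D1:**
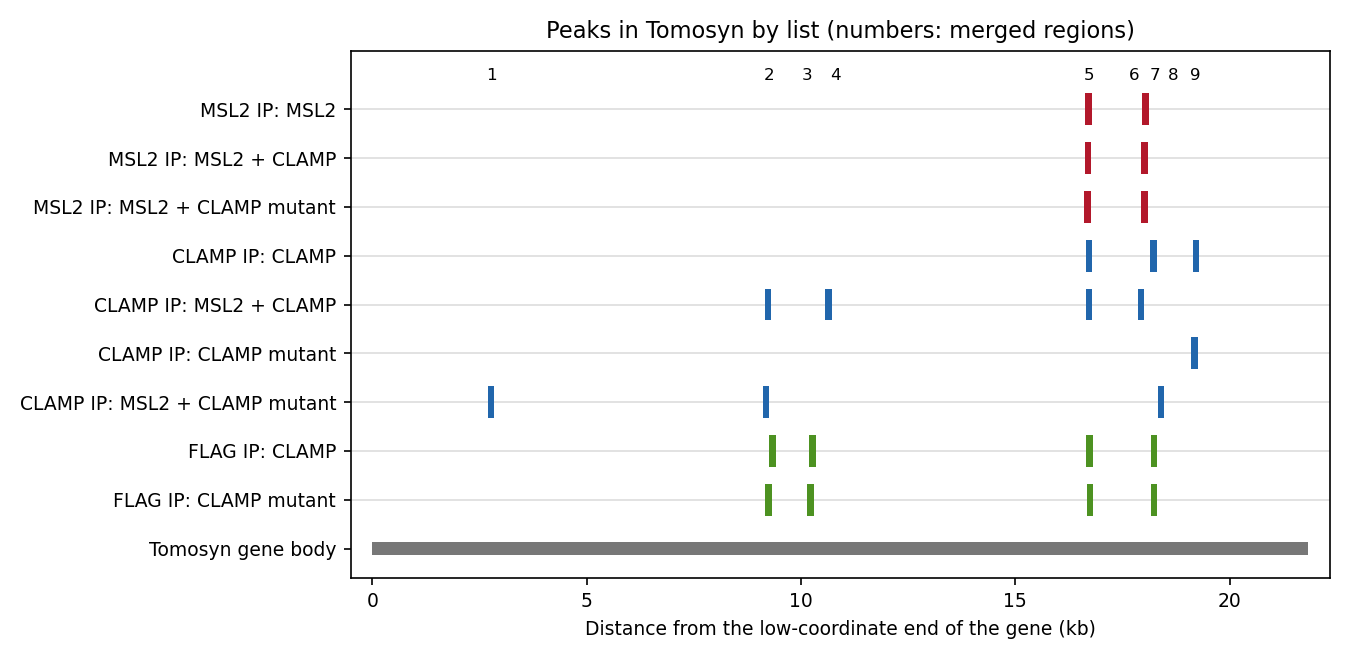
Peaks of the 9 lists along Tomosyn, drawn to scale. The x axis is the distance in kb from the low-coordinate end of the gene, each line is 1 list (the antibody, then the proteins added) and each block is 1 peak; numbers mark the 9 merged regions. MSL2 antibody peaks (red) lie only in regions 5 and 6, whereas CLAMP antibody (blue) and FLAG (green) peaks also lie near the middle of the gene.

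Region 5 (X 12648221 to 12648423) was called in 7 of the 9 lists, more than any other region of the gene. It was a peak of all 3 MSL2 antibody lists, of both FLAG lists, and of the CLAMP antibody with CLAMP and with MSL2 + CLAMP. The CLAMP antibody lists of the mutant, alone and with MSL2, had no peak there. Only 7 of the 1098 regions were in 7 or more lists, and 0 others had this set of lists.

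Region 6 (X 12649464 to 12649716) was in 4 lists, all of them from chromatin that held MSL2. These were the 3 MSL2 antibody lists and the CLAMP antibody list of MSL2 + CLAMP. The same set of lists called 18 other regions, 11 of them on X. Regions 5 and 6 were thus both called in every list of the MSL2 antibody. Over the series 75 regions were in all 3 MSL2 lists, and 3 genes held at least 2 of them. Besides Tomosyn these were Cph, an X-linked zinc finger gene, with regions 1361.5 bp apart, and msl-2, the gene of an added protein, with regions 1077 bp apart. In Tomosyn the distance between the centres was 1268 bp.

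Region 7 (X 12649755 to 12649916) was called only on chromatin without MSL2, by the CLAMP antibody with CLAMP and in both FLAG lists. Its edge lies 38 bp from that of region 6. Region 8 (X 12649929 to 12650079) follows after a gap of 12 bp and was a peak of 1 list, the CLAMP antibody with MSL2 + CLAMP mutant. Regions 6 to 8 therefore filled 616 bp and had no list in common. The peak caller was set to a minimum distance of 300 bp between peaks of 1 list. Peak centres of region 7 lay 189 to 302 bp from those of region 6 and 163 to 174 bp from that of region 8, and those of regions 6 and 8 lay 363 to 465 bp apart. Whether these are separate sites or shifted summits of 1 broader stretch cannot be told apart from the lists.

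Region 9 (X 12650716 to 12650902) was called by the CLAMP antibody in the lists of CLAMP and of the mutant, each without MSL2, and was in neither FLAG list. That combination was found at 3 other regions. With the CLAMP antibody this was the only peak of the mutant alone in the gene.

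Near the middle, region 2 (X 12640713 to 12641014) was called in 4 lists, by the CLAMP antibody with MSL2 + CLAMP and with MSL2 + CLAMP mutant and by both FLAG lists. Region 3 (X 12641758 to 12641947) was called in both FLAG lists and no other, a combination found at 76 other regions. Region 4 (X 12642179 to 12642329) was a peak of the CLAMP antibody with MSL2 + CLAMP, as were 205 other regions in that list alone. Region 1 (X 12634304 to 12634454) was found by the CLAMP antibody with MSL2 + CLAMP mutant, and 48 other regions were in that list alone. None of the 4 was a peak of the MSL2 antibody, and none was a peak of the CLAMP antibody without MSL2.

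All 9 regions were thus called by a CLAMP or FLAG antibody list, and 2 of them also by the MSL2 antibody. Most of the lists are CLAMP or FLAG lists, and the share of all regions that they call was not counted. The count of 9 is therefore not read as a trait of the gene. Over all regions 13.2% were called by both kinds of list. In Tomosyn 6 of 9 regions were in 2 or more lists, where 44.9% of all regions were, and 3 of 9 were in 4 or more, where 9.38% of all were. Without the CLAMP antibody lists of the mutant, an alternative chosen after the data were seen, 7 regions were left, since regions 1 and 8 were in no other list.

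The MSL2 antibody called regions 5 and 6 in each of its lists. Without CLAMP it called 2 of the 9 regions, where the list called 12.0% of all regions and 14.1% of those on X. With MSL2 + CLAMP it again called 2 of 9, beside 42.4% of all regions and 40.4% of those on X. With MSL2 + CLAMP mutant it called 2 of 9, beside 20.6% and 17.9%. Both MSL2-alone peaks of the gene were found with CLAMP (2 of 2, interval 15.8% to 100%), where 92.4% of the whole list were. Both were also found with the mutant (2 of 2, same interval), where 59.8% of the whole list were and 37 of 71 on X. The MSL2 list with CLAMP was 466 peaks long against 132 without it, and it held no added peak in Tomosyn.

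With the CLAMP antibody, CLAMP was called in a similar number of regions with and without MSL2, but by overlap mostly in other regions. CLAMP alone gave a peak in 3 of 9 regions (5, 7 and 9), where its list called 6.74% of all regions. MSL2 + CLAMP gave 4 of 9 (2, 4, 5 and 6), where the list called 39.1%. Of the 3 peaks of CLAMP alone, 1 was found with MSL2 by overlap (interval 0.84% to 90.6%), where 55.4% of the list were. That peak was the one in region 5. With peak centres within 500 bp counted as the same site it was 2 of 3, because the peaks in regions 6 and 7 then match. The list without MSL2 held 74 peaks from 8571204 tags, and the list with MSL2 held 429 peaks from 3875205 tags. A region missing from either may lie under the threshold of the caller.

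The CLAMP mutant alone was found by this antibody in 1 of 9 regions, where 3.46% of all regions were called. With MSL2 the mutant was found in 3 of 9 (1, 2 and 8), beside 6.38%. The peak of the mutant alone was not found with MSL2 (0 of 1), where 15.8% of that list were, and it was found with CLAMP (1 of 1), where 52.6% were. Of the 3 peaks of the mutant with MSL2, 1 was found with CLAMP and MSL2, where 24.3% of the list were. These mutant lists were 38 and 70 peaks long, so a region missing from them may lie under the threshold of the caller.

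The FLAG antibody called the same regions for both forms of CLAMP. CLAMP gave a peak in 4 of 9 regions (2, 3, 5 and 7), where its list called 32.2% of all regions, and the mutant gave a peak in the same 4, where its list called 20.4%. All 4 CLAMP peaks were found with the mutant (interval 39.8% to 100%), where 61.9% of the list were, and all 4 mutant peaks with CLAMP, where 97.8% were. The peak centres differed by 92 bp in region 2, 39 bp in region 3, 12 bp in region 5 and 0 bp in region 7. The median over all 219 shared FLAG peaks was 7 bp. In region 2 the overlap was under 50% of the peak width.

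The CLAMP and FLAG antibodies, each used after addition of CLAMP or of the mutant, met at part of the regions. Of the 3 peaks of CLAMP alone by the CLAMP antibody, 2 were FLAG CLAMP peaks (regions 5 and 7), where 55.4% of that list were. The 1 peak of the mutant was not a FLAG mutant peak, where 57.9% of that list were. Of the 4 CLAMP antibody peaks with MSL2 + CLAMP, 2 overlapped a FLAG CLAMP peak, where 35.4% of the list did. FLAG chromatin held no MSL2.

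Within the mixtures, peaks of the CLAMP and MSL2 antibodies overlapped at regions 5 and 6 with CLAMP and at no region with the mutant. The precipitations were separate, so an overlap does not show both proteins on the same DNA molecule. Of the 4 CLAMP antibody peaks with MSL2 + CLAMP, 2 overlapped an MSL2 antibody peak of that mixture, where 25.2% of the list did. By reciprocal 50% overlap it was 1 of 4. Of the 3 with MSL2 + CLAMP mutant, 0 did, where 4.29% of that list of 70 peaks did. With centres within 500 bp it was 1 of 3. Of the 2 peaks of MSL2 alone, 1 overlapped a FLAG CLAMP peak, where 30.3% of that list did. That was region 5, and the region 6 peak lay 200 bp from the FLAG peak of region 7 between centres.

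**Figure D2:**
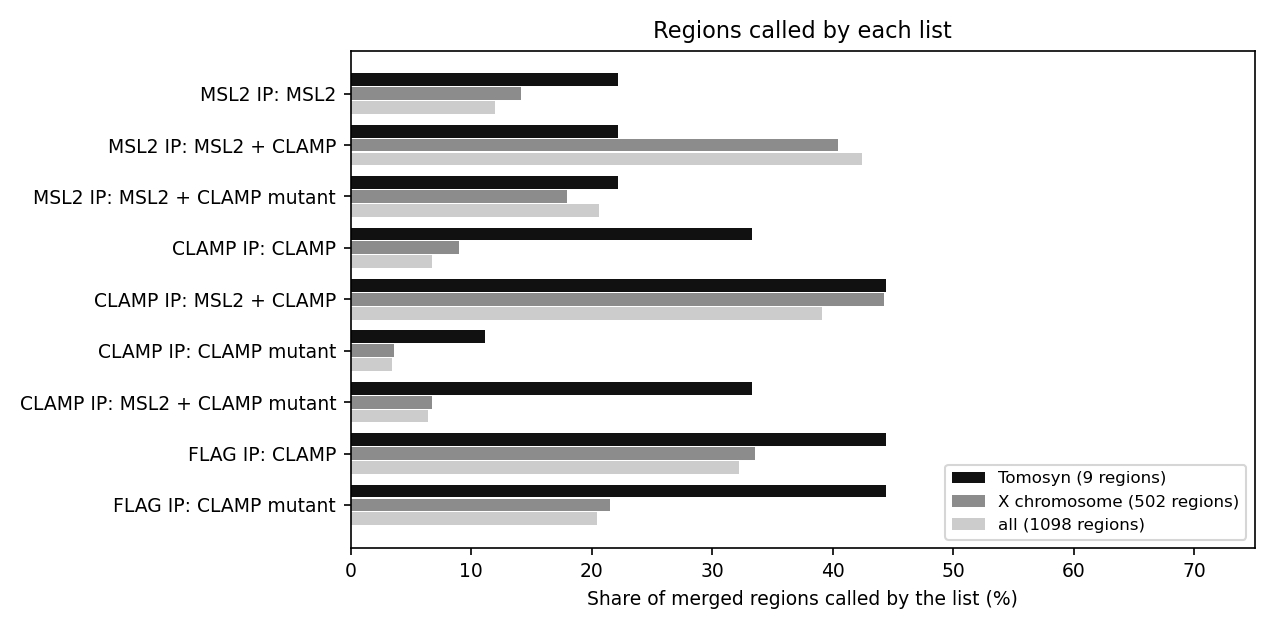
Share of the merged regions that each list called, in percent, for Tomosyn (black, 9 regions), the X chromosome (grey, 502) and all chromosomes (light grey, 1098). Tomosyn stands above the X share for CLAMP with the CLAMP antibody (33.3% against 8.96%) and below it for MSL2 + CLAMP with the MSL2 antibody (22.2% against 40.4%).

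With so few regions these shares are loose. A count of 2 of 9 has an interval of 2.81% to 60.0%, a count of 3 of 9 one of 7.49% to 70.1%, and a count of 4 of 9 one of 13.7% to 78.8%. Seen from the lists, the gene held 4.05% of the peaks of CLAMP alone by the CLAMP antibody (3 of 74), 4.29% of those of the mutant with MSL2 (3 of 70) and 2.63% of those of the mutant alone (1 of 38). It held 0.429% of the MSL2 peaks with CLAMP (2 of 466) and 1.52% of those without it (2 of 132). These lists cover all chromosomes, over which the gene holds 25 of 2013 peaks and 9 of 1098 merged regions. Of the merged regions on X alone it holds 1.79%, which is not the base for these shares.

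Each peak is centred on its highest pile-up of tags, so the centres locate the summits. In region 5 the MSL2 antibody centres lay at 12648312 for MSL2, 12648304 with CLAMP added and 12648296 with the mutant added. The CLAMP antibody centres lay at 12648327 with CLAMP and 12648321 with MSL2 + CLAMP, and the FLAG centres at 12648336 for CLAMP and 12648348 for the mutant. All 3 MSL2 centres were lower than all 4 others, by at least 9 bp and by 29.0 bp between the means. Such separate ranges were found in 22.0% of the 41 regions with at least 2 peaks of each kind. The median difference between the means in those 41 was 21.8 bp, and 14 had a larger difference than region 5.

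In region 6 the MSL2 antibody centres lay at 12649641 with MSL2 alone and at 12649624 in both mixtures. The CLAMP antibody centre with MSL2 + CLAMP lay lower, at 12649539, which is 85 to 102 bp from them. In region 7, without MSL2, the centres were 12649830 for the CLAMP antibody and 12649841 in both FLAG lists. These lay 189 to 217 bp above the MSL2 centres of region 6. In region 5 the CLAMP antibody centres lay above all MSL2 centres both without and with MSL2. The spread of the summits between libraries is not known.

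**Figure D3:**
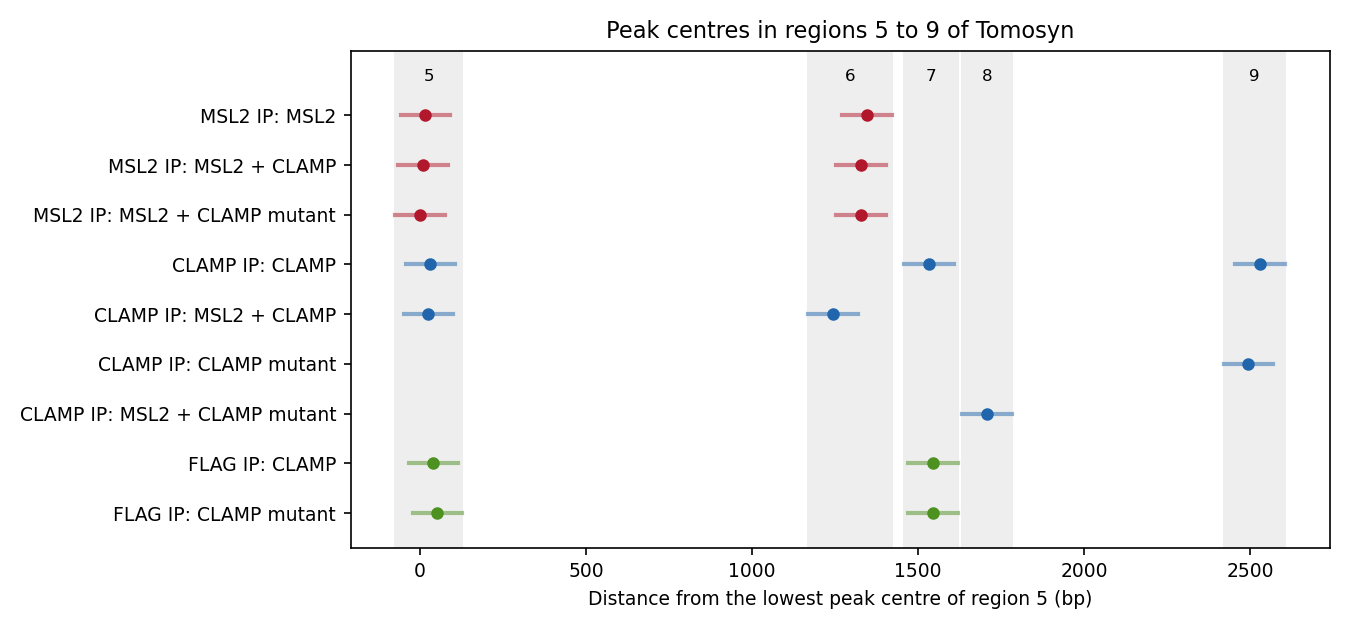
Peak centres (points) and peak extents (lines) in regions 5 to 9, by list. The x axis is the distance in bp from the lowest peak centre of region 5, and grey bands are the merged regions. In region 5 the 7 centres fall within 52 bp. In region 6 the CLAMP antibody centre stands 85 to 102 bp from the MSL2 antibody centres (red). Those MSL2 centres and the CLAMP and FLAG centres without MSL2 (region 7) stand 189 to 217 bp apart. Merging by overlap itself keeps centres of separate regions at least about a peak width apart.

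Over the series 9 neighbouring pairs of regions had a gap of at most 50 bp, 7 of them on X, and all 9 pairs had no list in common, which the minimum distance of 300 bp between peaks of a list largely sets. In 6 of the 9 the MSL2 antibody called 1 side only. Tomosyn held 2 of the 9 pairs, and the only run of 3 regions. Others lay in Cph (gap 11 bp) and in CG43902 (gap 4 bp), where, as in Tomosyn, MSL2 lists and the CLAMP antibody list of MSL2 + CLAMP called 1 side. FLAG CLAMP called the other side in both. No pair outside Tomosyn, Cph and CG43902 had this pattern.

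The 8 distances between neighbouring region centres in Tomosyn ran from 168.5 to 6484.5 bp, with a median of 897 bp. The 2 long distances, 6484.5 bp from region 1 to 2 and 6068 bp from region 4 to 5, separate the 3 places. The other 6 were 1268 bp or less, and 3 were under 500 bp. A gene body of this length with that many regions must hold them close, so spacing is no trait apart from density. Regions were closer than in the other X genes with 5 or more regions, of which there were 14, all of them longer, from 54.5 to 394 kb. Their median distances ran from 1.84 kb in dnc, a cAMP phosphodiesterase gene, to 12.5 kb in kirre, a cell adhesion gene of muscle fusion. Of their 79 distances, 6 were under 500 bp, in Cph, mamo, mgl and Sh. The smallest was 177 bp, in mamo. With peaks within 500 bp merged, the median of Tomosyn was 1449.5 bp over its 6 regions, and those of the same 14 genes ran from 1.84 kb in dnc to 17.5 kb in mgl, a lipoprotein receptor gene.

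**Figure D4:**
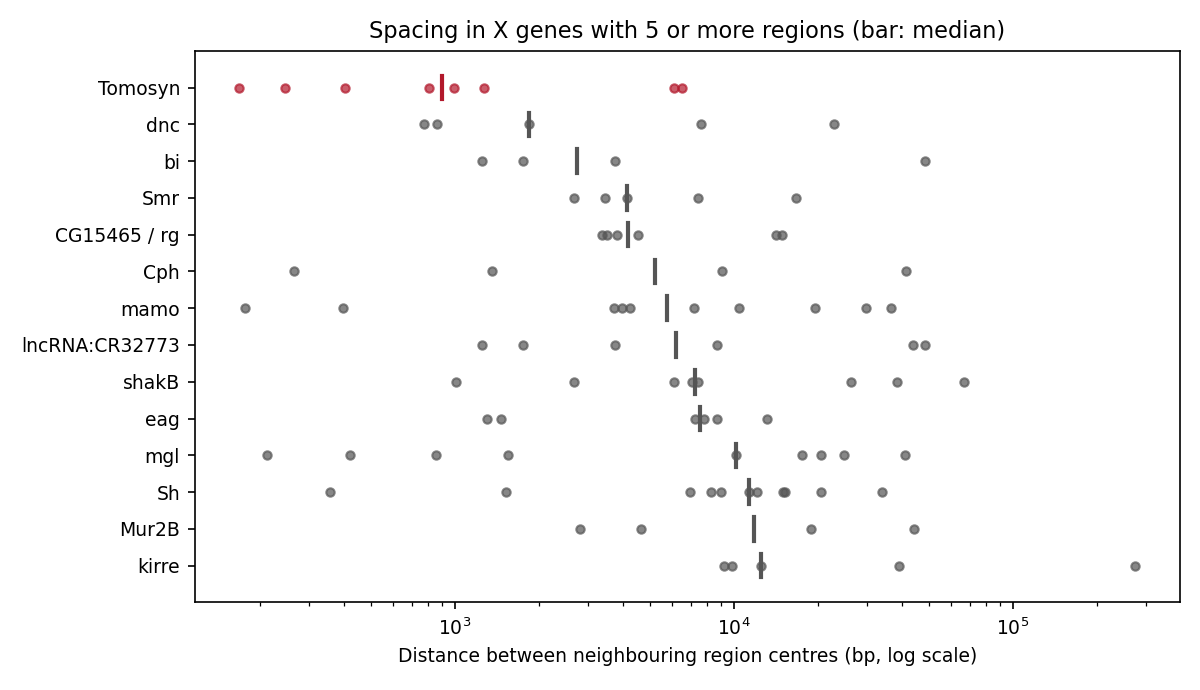
Distances between the centres of neighbouring regions (bp, log scale) in X genes with 5 or more regions; each point is 1 distance and each bar the median of a gene. CG15465 and rg have the same gene body and are drawn together. The median of Tomosyn, 897 bp (1449.5 bp with peaks within 500 bp merged), is the lowest, and the next is that of dnc at 1.84 kb. All the other genes are longer than Tomosyn.

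Joining regions less than 3 kb apart, a distance chosen after the data were seen, gave 988 groups over the series, of which 897 were 1 region. Only 2 groups held 5 regions and none held more. One was regions 5 to 9 of Tomosyn and the other lay in msl-2 (2L 3463340 to 3465292), the gene of an added protein. A further 13 groups held 3 regions, among them regions 2 to 4 of Tomosyn. Another of these lay in Clamp (2L 22166622 to 22167598), the gene of the other added protein. When peaks within 500 bp were merged first, regions 5 to 9 became a group of 3, and 5 such groups were the longest in the series. The other 4 lay in brp, ASPP, Eip75B and bi.

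Among the 275 X genes of 0.5 to 2 times its length (10.9 to 43.7 kb), Tomosyn had the most regions and the highest density, 4.12 per 10 kb. Of the 275 genes, 33.8% held at least 1 region and the median was 0. The next in number was lncRNA:CR44886, with 4 regions in 35.1 kb. The next in density were CG1695 (3 regions, 2.58 per 10 kb), CG11122 (3, 2.43 per 10 kb), Nup153, a nuclear pore gene (2, 1.78 per 10 kb), wupA, which encodes troponin I (2, 1.76 per 10 kb), and Vav (2, 1.75 per 10 kb). In the whole table of 17872 genes 3 had more regions (Sh, mamo and mgl, with 12, 11 and 10) and 1 had as many (shakB), all of them at least 139 kb long. The order rests on the CLAMP and FLAG lists. Over the MSL2 antibody lists alone Tomosyn had 2 regions, 0.92 per 10 kb, and 5 genes of similar length were denser, among them CG11122 (3 regions, 2.43 per 10 kb), CG1695 (2, 1.72), Pits (2, 1.43) and HUWE1 (2, 1.04).

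**Figure D5:**
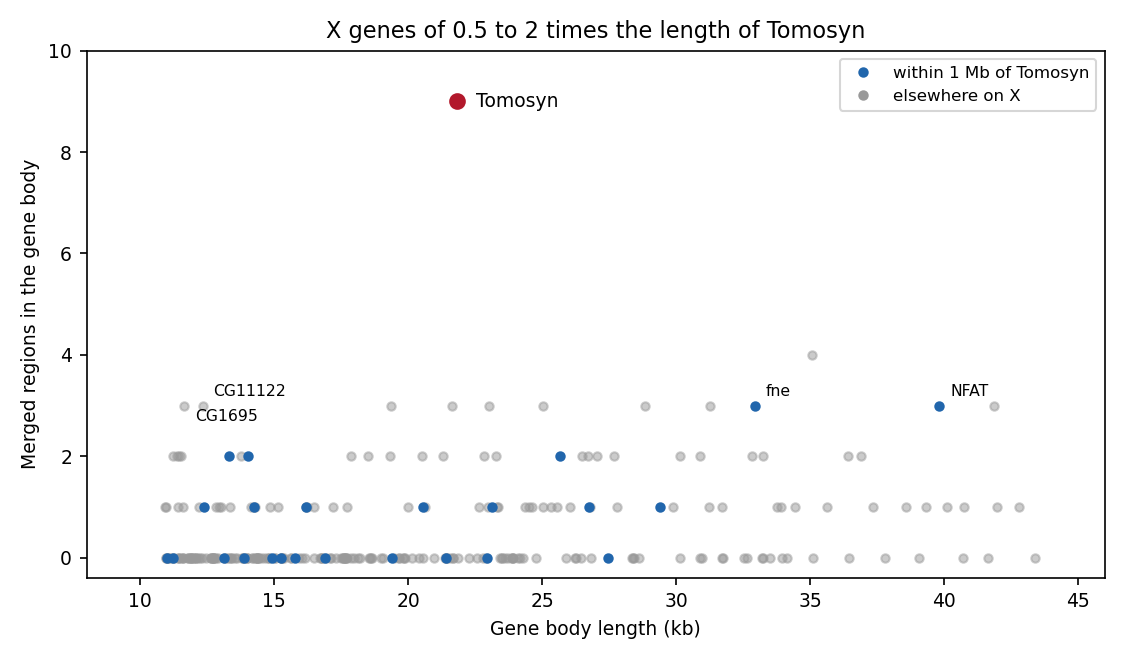
Number of merged regions against gene body length (kb) for the 275 X genes of 0.5 to 2 times the length of Tomosyn; blue points lie within 1 Mb of it. Tomosyn, with 9 regions, stands above all others, of which 1 has 4 regions and the rest 3 or fewer.

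The genes of similar length around Tomosyn held fewer regions each. Within 1 Mb there were 24 other genes of similar length, of which 12 had a region, beside the 33.8% of all X genes of that length, and 12 had none. They held 18 regions, at most 3 in a gene, and their lengths add up to 472 kb. Those with 3 were fne, an ELAV-family RNA-binding protein gene of neurons (32.9 kb, 8 list calls), and NFAT, a transcription factor gene (39.8 kb, 5 list calls). Those with 2 were Pits, a corepressor partner gene, lncRNA:CR43963 and IP3K2, an inositol phosphate kinase gene. Those with 1 were CG15221, rudhira, Tis11, CG32645, sno, CG46311 and Tpst, the last 2 sharing 1 region. No region lay in bif, m, fw, Pkcdelta, CG42258, mdu, Sec16, CG32647, hep, Chpf, Lgr4 or HDAC4. Smr (X 12684203 to 12742618) is nearby but, at 58.4 kb, too long for this comparison, and it had 6 regions. Its body contains that of lncRNA:CR43963, whose regions are therefore also regions of Smr. Pkcdelta, a protein kinase C gene, has nearly the length of Tomosyn at 21.4 kb, lies 178 kb away and had 0 regions.

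Regions in the nearer of these genes were called by differing lists. Tis11, an mRNA decay factor gene 5.97 kb away and 23.1 kb long, had 1 region (X 12677055 to 12677241), called by all 3 MSL2 lists and by no CLAMP or FLAG list. In Pits, 48.4 kb away, 1 region (X 12582884 to 12583180) was called by the MSL2 antibody with MSL2 and MSL2 + CLAMP and by the CLAMP antibody with MSL2 + CLAMP, and another with MSL2 + CLAMP by the MSL2 antibody only. In lncRNA:CR43963, 64.2 kb away, 1 region was called by both FLAG lists and 1 by the MSL2 antibody with MSL2 + CLAMP. In fne, 1 region was called by the MSL2 and CLAMP antibodies with MSL2 + CLAMP and by both FLAG lists (X 12926202 to 12926416), in all 4 lists.

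The genes next to Tomosyn had no region. CG2540 ends 493 bp below the gene and CkIalpha, the casein kinase I alpha gene, starts 183 bp above it. The nearest regions outside the gene lay 48424 bp below and 23612 bp above. The miRNA gene mir-970 lies inside the gene body (X 12636336 to 12636430), overlapped no region, and was 1881 bp from the nearest, region 1.

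By the counts of regions over the 9 lists, the X genes most like Tomosyn among those with 5 or more regions were shakB, an innexin gene of electrical synapses (cosine 0.937), eag, a potassium channel gene (0.882), mamo, a zinc finger gene (0.833), dnc (0.815) and bi, a T-box gene (0.812). The measure runs over 9 lists that share controls within an antibody. In shakB the CLAMP antibody with MSL2 + CLAMP called 4 of 9 regions and both FLAG lists 3, near the 4 and 4 of Tomosyn, but the MSL2 antibody called 0 with MSL2 alone and 1 in each mixture. In eag the MSL2 antibody called 2 of 7 regions without CLAMP, 3 when CLAMP was added and 0 when the mutant was added.

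A list of 35 genes that act in vesicle release, all in the gene table, held 2 genes with regions. So few allow no reading beside the 3.61% of all genes in the table that had one. That share is not matched for gene length, whose median in the list was 8.93 kb. The 33 without one included Syx1A, Snap25 and nSyb, which encode the SNARE proteins of synaptic vesicle fusion, Rop, which encodes the syntaxin-binding Sec1 homologue, cpx, which encodes complexin, and l(2)gl, which encodes a polarity protein related to Tomosyn. The list held Rim2, which in Drosophila names a mitochondrial carrier, and without it 34 genes remain. Of the 9 listed genes on X, 1 had a region, where 255 of the 2705 X genes in the table did. This was cac, which encodes the presynaptic calcium channel, with 3 regions. They were called by the MSL2 antibody in 1 or the other mixture, 1 of them also by the CLAMP antibody with MSL2 + CLAMP. The autosomal gene brp, which encodes the Bruchpilot protein of active zones, had 3 regions, all called by the MSL2 antibody with MSL2 + CLAMP. Neither gene had a peak with MSL2 alone, where Tomosyn had 2.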

How the data were processed

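The submitters' processing notes name Bowtie2 2.2.9, SAMtools 1.9, HOMER 4.9 and the build dm6. Per the file headers, the authors ran HOMER findPeaks in factor style on the merged tags of a group, with the same antibody's negative control as input. The thresholds were 10-fold over control, 4-fold over the local 10000 bp and a false discovery rate of 0.001, so absence from a list is no measured loss. The deposited score is 1 in every line and carries no signal, so a stricter threshold could not be applied. Peaks were 151 bp wide apart from 3. Starts were made 1-based. Genes came from the RefSeq table of the same assembly (Release 6 plus ISO1 MT), which gives no strand or exons. No sequence was used, so the planned motif search was not run. Merging was tested on simulated lists and gave the same number of regions as bedtools 2.31.1. Python 3.11.15, scipy 1.17.1, numpy 2.4.6 and matplotlib 3.10.9 were used. Neighbours are X genes of 0.5 to 2 times the length within 1 Mb. Besides these and the genes that touch Tomosyn, the genes named are the 5 densest of similar length, the 5 most similar over the lists and listed release genes with a region. Tis11, Pits, lncRNA:CR43963, fne and Pkcdelta were described further, and genes outside these rules named, after their values were seen. The gene and the lists were chosen with earlier results of these data known.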

Additional observations from a re-analysis of the deposited data

How the results depend on the processing

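No paired analysis was possible because each list merges its libraries, so no replicate could be left out either. The 9 regions became 6 with peaks within 500 bp merged, or when lists were cut to their first 50% in file order, 7 without the CLAMP antibody lists of the mutant, and 11 when merging needed an overlap of 50% of the shorter peak. Tomosyn stayed first in density under the first 3 of these (2.75, 2.75 and 3.21 per 10 kb), and ranked 6 (0.92 per 10 kb) over the MSL2 lists alone. The median distance was 1449.5 bp with peaks within 500 bp merged. Of the 24 neighbours, 12 had a region; within 500 kb it was 5 of 12 and within 2 Mb 22 of 45. Counting a list's peak centre within 500 bp of a region centre as a call, each MSL2 antibody list reached 4 regions, CLAMP alone and the mutant with MSL2 5 each, and MSL2 + CLAMP (CLAMP antibody) and both FLAG lists 7 each. In the first 50% of the lists the last 3 called 2 each and the mutant alone 0. With centres within 500 bp, matches became 2 of 3 for CLAMP alone in MSL2 + CLAMP, 2 of 3 for the mutant with MSL2 in MSL2 + CLAMP, 1 of 3 for the mutant with MSL2 in the MSL2 antibody list of that mixture, 2 of 2 for MSL2 alone in FLAG CLAMP and 4 of 4 for MSL2 + CLAMP in FLAG CLAMP. Reciprocal 50% overlap left 1 of 4 for MSL2 + CLAMP (CLAMP antibody) in the MSL2 antibody and FLAG CLAMP lists, and 3 of 4 between the FLAG lists. Wider windows join regions 6 to 8 by construction.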
